A study of Penicillium oxalicum with 12 samples.

Results

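The laeA deletion strain (DlaeA) was compared with the wild type 114-2 (WT) of Penicillium oxalicum, a filamentous fungus, in 3 libraries each. Every library came from mycelia pre-grown from conidia for 22 h at 30 °C with 2% glucose and grown for another 24 h after a move to fresh medium, also with 2% glucose. The labels give no further allele, selection marker or complemented strain, and they do not say whether the deletion strain is 1 clone or whether the 3 libraries of a strain are separate cultures. The p-values therefore reflect only how far the libraries varied, and that variation may be technical. Strains with lysine 123 or lysine 131 of histone H2B replaced by alanine (H2BK123A and H2BK131A, 3 libraries each) grew the same way. Their values are given only beside results for the deletion. Their libraries also entered the choice of genes and the estimate of spread behind every SE and p-value. Genes were chosen by level alone: 9431 of the 9931 in the table had an FPKM (fragments mapped to a gene, divided by transcript length and by library size) of 1 or more in at least 3 of the 12 libraries.

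LaeA is a putative methyltransferase of the nucleus, best known from Aspergillus nidulans, where it works with the velvet proteins VeA and VelB. In that fungus it regulates clusters of neighbouring genes that make secondary metabolites, small molecules such as toxins, pigments and antibiotics, and it takes part in asexual and sexual development. A fungal cluster typically holds a backbone enzyme, such as a polyketide synthase or a non-ribosomal peptide synthetase, next to tailoring enzymes, a transporter and a regulator.

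No gene is described as laeA in the files, and PDE_00584 is recalled as its locus. It stood at FPKM 34.9, 37.9 and 33.9 in WT 1, WT 2 and WT 3 and at 0.11, 0.05 and 0 in the DlaeA libraries. Libraries of WT differed more from each other than those of the mutant strains did: the SD of log2(FPKM + 1) within a strain had a median over genes of 0.223 in WT and of 0.111 to 0.124 in the mutants. Among genes at an FPKM of 1000 or more, the SD of the log2 difference was 1.31 between WT 1 and WT 2, 1.14 between WT 2 and WT 3 and 0.439 between WT 1 and WT 3. The DlaeA pairs had 0.394 (1 and 2), 0.391 (1 and 3) and 0.0933 (2 and 3), so DlaeA 1 stood apart from the other two, and pairs of the H2B strains had 0.174 to 0.432. The mycelium label was compared with 7 genes described as conidiation regulators, spore wall or pigment enzymes. Their summed FPKM was 7556 in WT 1, 949 in WT 2 and 6883 in WT 3, and 1299 to 1458 in DlaeA, with 1 marker under an FPKM of 1 in each WT library and 1 to 3 in the DlaeA libraries. Most of the WT sums came from PDE_09236 and PDE_09239, which lie in the longest lower stretch described below and together had 7105, 816 and 6530 in WT and 0.78 to 3.43 in DlaeA. The other 5 markers summed to 451, 133 and 353 in WT and to 1298 to 1456 in DlaeA, so the direction of the sum depends on the markers taken. No gene is described as a hydrophobin, AbaA or WetA, which would mark spores and spore-bearing cells most directly. The part of spore-bearing cells in the results was not tested, and in such bulk RNA fewer cells of a kind and less RNA per cell cannot be told apart.

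Differences are on the log2(FPKM + 1) scale, DlaeA minus WT, with the SE of a limma fit over all 12 libraries, and a gene was called at a Benjamini-Hochberg adjusted p under 0.05. The fit called 6596 genes, 69.9% of those tested, of which 4371 were higher in DlaeA (46.3%) and 2225 lower (23.6%). Against H2BK123A and H2BK131A the same fit called DlaeA different at 61.2% and 77.5% of genes. The direction of the balance against WT depended on the size of the change. At a log2 difference of at least 1, 2843 genes were called (30.1%), 1724 of them higher (18.3%) and 1119 lower (11.9%). At 2 or more, 1075 were called (11.4%), 548 higher (5.81%) and 527 lower (5.59%). Beyond that the falls outnumbered the rises, on a scale where the added 1 bounds a change from or to an FPKM near 0. At 4 or more there were 269 (2.85%), 104 higher (1.1%) and 165 lower (1.75%), at 6 or more 90 (0.954%), 24 higher (0.254%) and 66 lower (0.7%), and at 8 or more 38 (0.403%), 5 higher (0.053%) and 33 lower (0.35%). At an unadjusted p under 0.05, 72.4% of genes passed. With median ratio scaling between libraries the falls led already at 1 (1229 higher and 1459 lower), and at 8 or more the counts were 4 and 36. Quantile scaling gave 1346 and 1337 at 1, and 5 and 33 at 8. At any size, 3212 genes were called higher and 3154 lower with median ratio scaling, and 3586 and 2813 with quantile scaling. List counts with a scaling are to be read beside these. The median of all genes lay at 0.27 as deposited, 0.02 with median ratio and 0.09 with quantile scaling, so medians of gene lists below are also given relative to it.

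**Figure D1:**
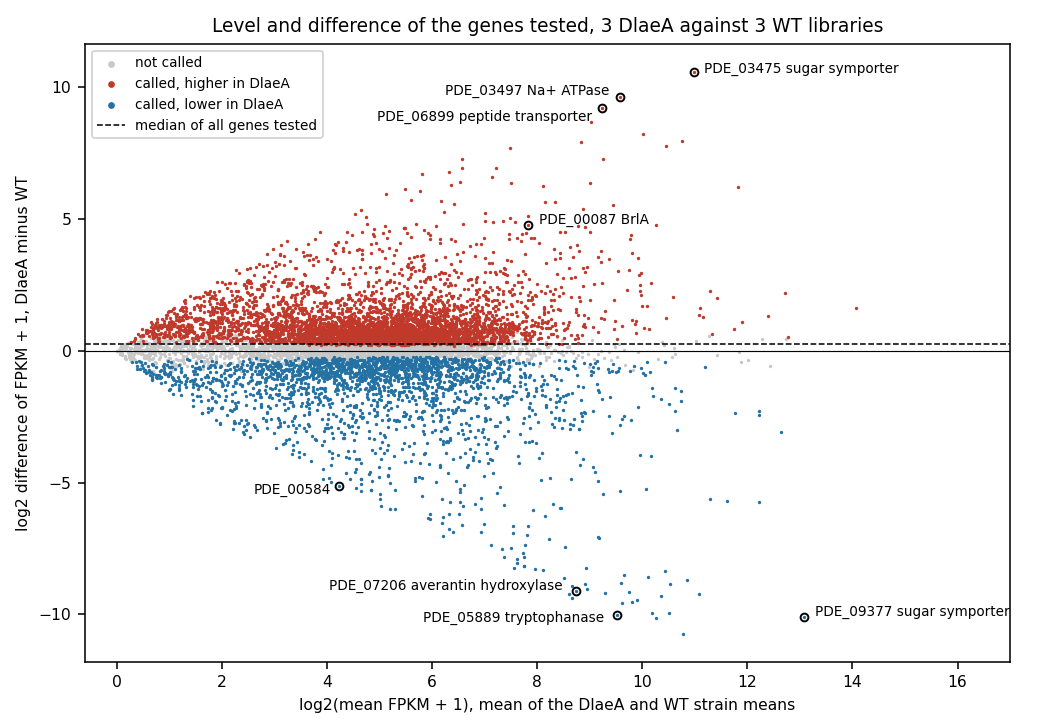
Each point is 1 of the 9431 genes, with the log2 of its mean FPKM + 1 over both strains on the x axis and its log2 difference, DlaeA minus WT, on the y axis. Red and blue mark genes called higher and lower, grey those not called, and the dashed line is the median of all genes at 0.27. The widest falls reach -10.73 and the widest rises 10.58, and 8 genes are ringed and labelled.

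Some of the genes that changed strongly stood beside each other. Loci were ordered by locus number, which stands for position here because genome coordinates were not used, so a stretch may cross a scaffold end. A stretch was 5 or more tested loci in a row, each called in the same direction with a log2 difference of at least 1. There were 44 stretches, 22 higher and 22 lower, with 146 and 147 loci, or 3.11% of the genes tested, and whether this is more than chance gives was not tested. DlaeA and WT did not overlap at any locus in 41 of them (70.3% of all tested genes did not overlap), which the rule that chose the loci largely fixes. The sizes of the falls and rises differed: 7 of the lower stretches had a median of -4 or below, and 0 of the higher ones had a median of 4 or above. With 1 added to each FPKM, a change from or to a level near 0 is bounded by the level in the other strain. PDE_01075, at 0 in every WT library and at 13.7 on average in DlaeA, thus had a difference of 3.87. How far this shaped the contrast between falls and rises was not tested. In 13 of the 22 lower stretches the median FPKM was lowest in WT 2 among the WT libraries, and in 16 of the 22 higher ones it was lowest in WT 1.

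**Figure D2:**
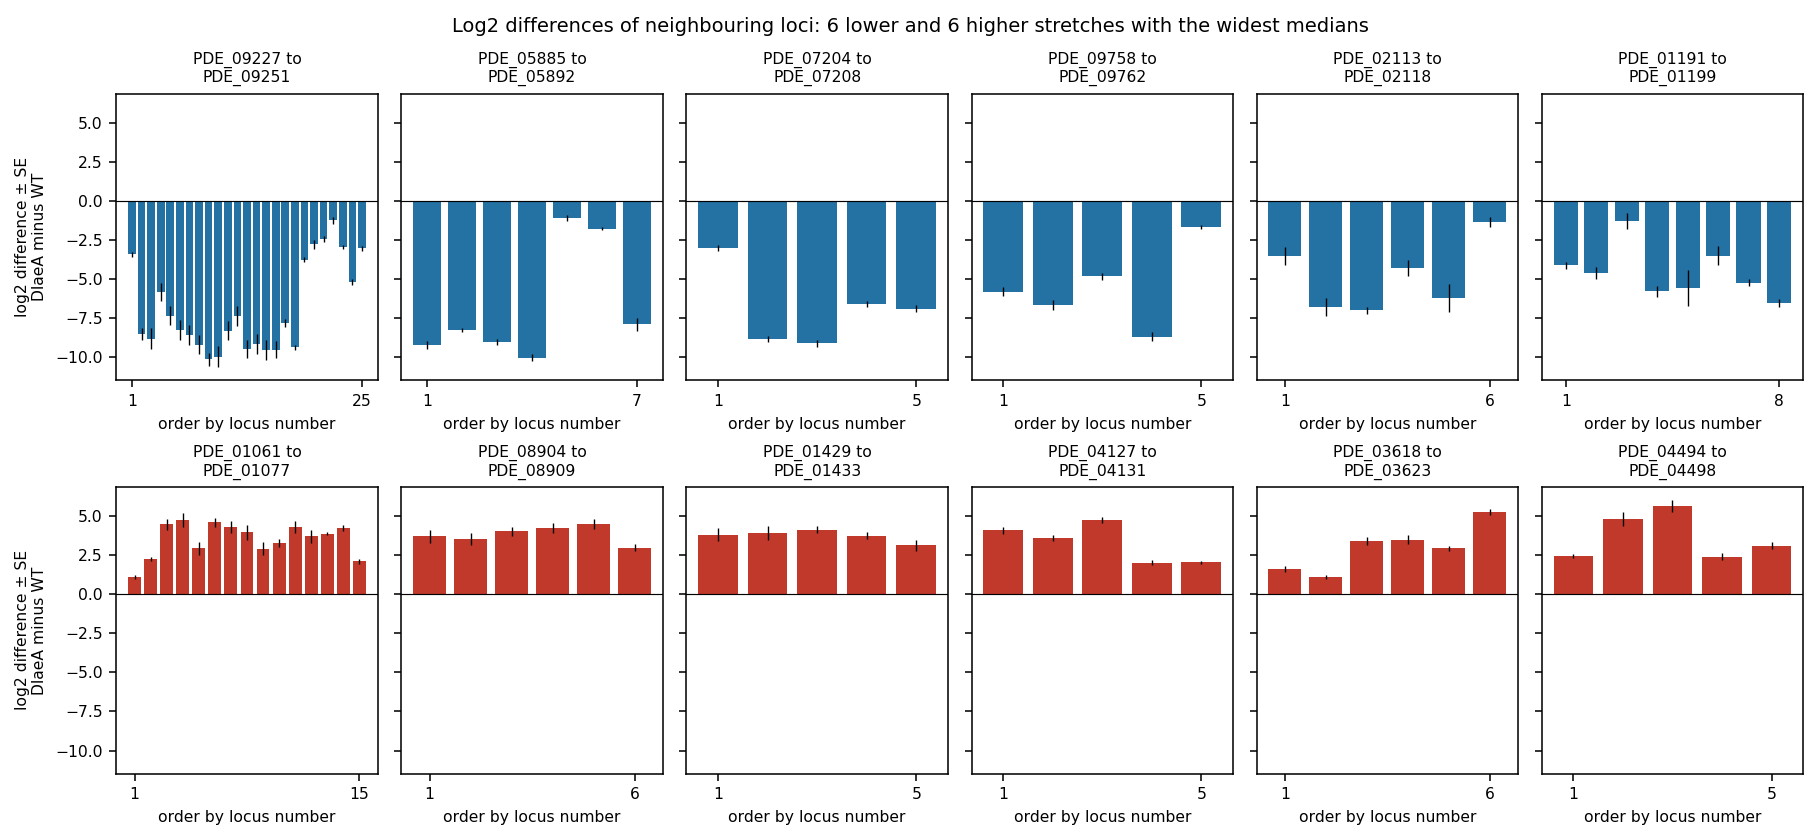
Bars give the log2 difference, DlaeA minus WT, with its SE for each tested locus in order of locus number, in the 6 lower (top, blue) and 6 higher (bottom, red) stretches with the widest medians. The medians of these lower stretches lie between -8.26 and -4.93, and those of the higher ones between 3.10 and 3.87.

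The longest stretch, 25 loci from PDE_09227 to PDE_09251, held 3.0% of the FPKM of WT on average, from 0.889% to 4.14% by library. It held on average 0.0114% in DlaeA, 1.06% in H2BK123A, which is within the WT range, and 0.0413% in H2BK131A. Its right end differed from its core. PDE_09244, described as a 6-hydroxytryprostatin B O-methyltransferase, was at 807, 664 and 970 in WT and at 0.26, 0.35 and 0.04 in DlaeA (-9.38 ± 0.16, limma adjusted p = 1.04e-12). WT 2 was close to the other WT libraries there, whereas at PDE_09232, which has no description, it was at 75.6 beside 739 and 669, with DlaeA at 0.15, 0.15 and 0. In H2BK131A, PDE_09232 was at 0.347 ± 0.17 and PDE_09250 near the right end at 62.7 ± 9.12 (SD, n = 3), where DlaeA had 0.1 ± 0.0866 and 7.22 ± 1.19.

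The stretch from PDE_05885 to PDE_05892 held genes of tryptophan breakdown and fell by a median of 8.25. PDE_05889 is described as tryptophanase, which splits tryptophan into indole, pyruvate and ammonia. Its FPKM was 2010, 889 and 1524 in WT and 0.4, 0.55 and 0.1 in DlaeA (-10.03 ± 0.24, limma adjusted p = 1.56e-11). Every DlaeA library was below 1 and every WT library above 800. PDE_05885, described as indoleamine 2,3-dioxygenase, which opens the indole ring at the start of the kynurenine pathway, was at 1074, 437 and 810 in WT and at 0.2, 0.39 and 0.05 in DlaeA (-9.23 ± 0.25, limma adjusted p = 4.47e-11). The intermediate loci PDE_05886 and PDE_05888, without a description, fell as far (-8.25 and -9.02), while PDE_05890, described as a chitinase, fell little (-1.08). Both H2B strains kept these genes on, where PDE_05889 averaged 401 ± 12.7 (H2BK123A) and 146 ± 9.98 (H2BK131A; SD, n = 3).

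A shorter stretch from PDE_07204 to PDE_07208 held genes of terpenoid and oxidation chemistry and fell by a median of 6.90. PDE_07205 is described as geranylgeranyl diphosphate synthase, which makes the C20 precursor of diterpenes, and was at 976, 753 and 1164 in WT and at 1.01, 1.42 and 0.82 in DlaeA (-8.84 ± 0.21, limma adjusted p = 1.54e-11). Its neighbour PDE_07206, described as averantin hydroxylase, a cytochrome P450 of aflatoxin synthesis in Aspergillus, was at 886, 742 and 930 against 0.37, 0.91 and 0.4 (-9.11 ± 0.23, limma adjusted p = 2.35e-11). The WT libraries lay close together for both. In H2BK123A these genes were at 248 ± 24 and 234 ± 19.1, and in H2BK131A at 31.5 ± 8.74 and 33.8 ± 12.8 (SD, n = 3), between the levels of WT and DlaeA.

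From PDE_01212 to PDE_01220, 9 loci fell by a median of 4.0, among them genes described as brevianamide F synthase (a non-ribosomal peptide synthetase), both subunits of a fungal fatty acid synthase, a branched-chain aminotransferase and a multidrug pump. PDE_01217, the alpha subunit of that fatty acid synthase, was at 1665, 117 and 1411 in WT and at 21.2, 27.9 and 29.2 in DlaeA (-4.60 ± 0.77, limma adjusted p = 0.000238). PDE_01212, the peptide synthetase, was at 736, 65.3 and 705 against 15.3, 19.6 and 20.2 (-4.08 ± 0.73, limma adjusted p = 0.000376). For both, WT 2 was far below the other WT libraries and still above every DlaeA library. Without WT 2 the median of the stretch was -5.23. H2BK123A resembled WT 2 more than WT 1, with PDE_01217 at 71.6 ± 32.2 (SD, n = 3), and the difference of DlaeA from H2BK123A was not called for it (-1.33 ± 0.77, limma adjusted p = 0.157).

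Among the other deep falls, 6 loci from PDE_02113 to PDE_02118 had a median of -5.26 (-6.04 to -4.32 when 1 library was left out). PDE_02115, without a description, was at 638, 343 and 357 in WT and at 1.5, 2.83 and 2.88 in DlaeA (-7.0 ± 0.23, limma adjusted p = 3.15e-10). PDE_02117, also without one, was at 359, 9.66 and 103 in WT and is listed at 0 in all 3 DlaeA libraries. The stretch from PDE_01191 to PDE_01199 had a median of -4.93, and its loci were mixed in the H2B strains. Its PDE_01194, described as a glutathione S-transferase, an enzyme that conjugates glutathione to reactive compounds, was at 294, 178 and 188 in WT, at 1.94, 5.59 and 1.98 in DlaeA (-5.80 ± 0.37, limma adjusted p = 8.74e-08), while H2BK123A averaged 2708 ± 1029 and H2BK131A 4904 ± 1506 (SD, n = 3). DlaeA was the lowest strain at this gene and H2BK131A the highest. Both H2B strains also averaged above WT at PDE_01191 and PDE_01193, but below it at PDE_01196, PDE_01198 and PDE_01199. At PDE_01192 and PDE_01195 only H2BK131A was above WT. PDE_01196 averaged 244 in WT, 16.2 in H2BK123A, 59.7 in H2BK131A and 14.1 in DlaeA.

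Stretches that rose also held genes described as secondary metabolite enzymes. The longest, from PDE_01061 to PDE_01077, had 15 tested loci with a median of 3.87, among them PDE_01066, described as an enzyme that adds a dimethylallyl group to a cyclic dipeptide. It was at 33.7, 87.3 and 142 in WT and at 603, 577 and 560 in DlaeA (2.94 ± 0.40, limma adjusted p = 4.75e-05). PDE_01064, described as fumitremorgin C monooxygenase, was at 0.9, 3.76 and 6.01 against 93.3, 82 and 86 (4.46 ± 0.36, limma adjusted p = 6.61e-07). Every DlaeA library was beyond all 9 other libraries at 13 of the 15 loci (39.7% of all tested genes), a count that the choice of loci by their difference from WT partly fixes. PDE_01075 is listed at 0 in all WT libraries and was at 15.3, 13 and 12.8 in DlaeA.

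A second long stretch, PDE_09999 to PDE_10010, rose at all 12 loci (median 2.96). Of these, 7 carry a description, among them paspaline synthase (PDE_10000), an enzyme of indole diterpene synthesis, geranylgeranyl diphosphate synthase (PDE_10001), an FAD dependent monooxygenase (PDE_09999), a hybrid polyketide and peptide synthetase (PDE_10006) and verruculogen synthase (PDE_10009). PDE_10001 was at 3.69, 8.52 and 21.9 in WT and at 73.5, 76.6 and 69.5 in DlaeA (2.88 ± 0.43, limma adjusted p = 9.45e-05). WT 3 was the highest WT library and WT 1 the lowest, and all stayed under DlaeA. Of the 3 genes described as geranylgeranyl diphosphate synthase, PDE_10001 and PDE_00149 (0.88) were called higher and PDE_07205 lower.

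From PDE_01429 to PDE_01433 the median rise was 3.81. PDE_01430 is described as trichodiene synthase, a sesquiterpene cyclase, and was at 0.3, 0.78 and 5.24 in WT and at 36.4, 35.9 and 34.3 in DlaeA (3.91 ± 0.45, limma adjusted p = 1.13e-05). A second gene so described, PDE_01717, fell from 34.9, 90.6 and 112 to 13.4, 6.81 and 6.89 (-2.90 ± 0.39, limma adjusted p = 4.5e-05), as did its neighbour PDE_01718, described as farnesyl diphosphate synthase (-2.46 ± 0.32), which makes the substrate of such cyclases. The DlaeA libraries lay above WT for the first and below WT for the others.

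In the 5 loci from PDE_04494 to PDE_04498 the DlaeA levels were high in absolute terms. PDE_04496, described as scytalone dehydratase, an enzyme of dihydroxynaphthalene melanin synthesis, was at 4.85, 8.79 and 21.4 in WT and at 666, 512 and 479 in DlaeA (5.66 ± 0.37, limma adjusted p = 1.12e-07). Next to it, PDE_04495, described as a 3-oxoacyl-[acyl-carrier protein] reductase, was at 41, 72.6 and 201 against 2455, 2277 and 2350 (4.79 ± 0.45, limma adjusted p = 2.26e-06). The other gene described as scytalone dehydratase, PDE_09236 in the longest lower stretch, went the other way, at 4451, 440 and 3834 against 1.45, 1.83 and 0.1. The 2 genes described as BrlA, the zinc finger factor that starts conidiophore development in Aspergillus, lay in neighbouring higher stretches, PDE_00079 to PDE_00083 and PDE_00086 to PDE_00090. PDE_00087 was at 5.67, 19.7 and 28.9 in WT and at 412, 449 and 444 in DlaeA (4.76 ± 0.42, limma adjusted p = 1.42e-06). PDE_00079 stayed low in both, at 0.58, 0.15 and 0.43 against 1.51, 1.64 and 3.26.

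The other genes of conidiation moved in both directions. PDE_03008, described as FlbD, a Myb-like factor that acts before BrlA in Aspergillus, was at 63.8, 98.2 and 138 in WT and at 376, 365 and 372 in DlaeA (1.95 ± 0.23, limma adjusted p = 1.62e-05). PDE_01188, described as DIT1, a spore wall protein known from yeast, was at 376, 5.93 and 164 against 1.02, 0.91 and 0.61 (-5.36 ± 1.21, limma adjusted p = 0.00197), with WT 2 close to the DlaeA libraries and WT 1 far above them.

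Over the whole list of backbone enzymes, 18 of 31 tested members rose and 4 fell, beside 46.3% and 23.6% of all genes. Their median log2 difference was 0.76 above that of all genes, and with median ratio scaling 16 rose and 5 fell. The strongest rise was that of PDE_09491, described as naphtho-gamma-pyrone polyketide synthase, at 0.84, 2.73 and 4.44 in WT and 47.5, 59.3 and 63.7 in DlaeA (4.10 ± 0.31, limma adjusted p = 3.74e-07), and the deepest fall that of PDE_09237, described as monodictyphenone polyketide synthase. Tailoring enzymes and efflux pumps had 16 higher and 17 lower of 39, a smaller share higher and a larger share lower than over all genes. At a log2 difference of at least 1 these were 15 and 16, beside 18.3% and 11.9% of all genes. The list median was 0.34 below that of all genes, and the balance of counts changed sign when WT 3 was left out. Of these lists 10 backbone and 18 tailoring genes lay in stretches.

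Tyrosine breakdown was split between a stretch that fell and one that rose. In that pathway an aromatic aminotransferase makes 4-hydroxyphenylpyruvate, 4-hydroxyphenylpyruvate dioxygenase turns it into homogentisate, and homogentisate dioxygenase, maleylacetoacetate isomerase and fumarylacetoacetase take it to fumarate and acetoacetate. Among 5 genes described as 4-hydroxyphenylpyruvate dioxygenase, PDE_09761 was at 4982, 2098 and 3929 in WT and at 10.9, 6.72 and 5.47 in DlaeA (-8.68 ± 0.30, limma adjusted p = 4.64e-10). Another, PDE_08904, was at 109, 194 and 95.9 against 1550, 1663 and 1757 (3.70 ± 0.39, limma adjusted p = 5.43e-06). Neither gene's groups overlapped, so the gene high in WT was low in DlaeA and the gene low in WT was high. Of the 3 others, all below 15 in both strains, PDE_07246 (2.46) and PDE_06628 (1.30) rose and PDE_08815 was not called. How reads were divided between similar genes is not given in the sources used here.

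Each of these genes moved with its neighbours. Beside PDE_09761, PDE_09759, described as aromatic amino acid aminotransferase I, was at 650, 197 and 496 in WT and at 2.75, 2.74 and 3.45 in DlaeA (-6.66 ± 0.33, limma adjusted p = 1.05e-08), and PDE_09760, described as DOPA 4,5-dioxygenase, fell too (-4.83 ± 0.25). Beside PDE_08904, the homogentisate dioxygenase PDE_08906 was at 39.2, 84.2 and 35.3 in WT and at 718, 849 and 863 in DlaeA (4.02 ± 0.29, limma adjusted p = 2.19e-07). The maleylacetoacetate isomerase PDE_08908 (4.51 ± 0.31) and the fumarylacetoacetase PDE_08907 (4.26 ± 0.33) rose with it. WT 2 was the lowest WT library at each of the falling genes and the highest at each of the rising ones. The H2B strains lay on the same side of WT as DlaeA by share of FPKM. The stretch of PDE_09761 held 0.797% in WT, 0.193% in H2BK123A, 0.348% in H2BK131A and 0.0232% in DlaeA, and that of PDE_08904 held 0.0515%, 0.11%, 0.933% and 0.755%. PDE_08906 averaged 176 ± 27.3 in H2BK123A and 2418 ± 580 in H2BK131A (SD, n = 3), the latter above DlaeA (DlaeA minus H2BK131A -1.55 ± 0.29, limma adjusted p = 0.000348).

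**Figure D3:**
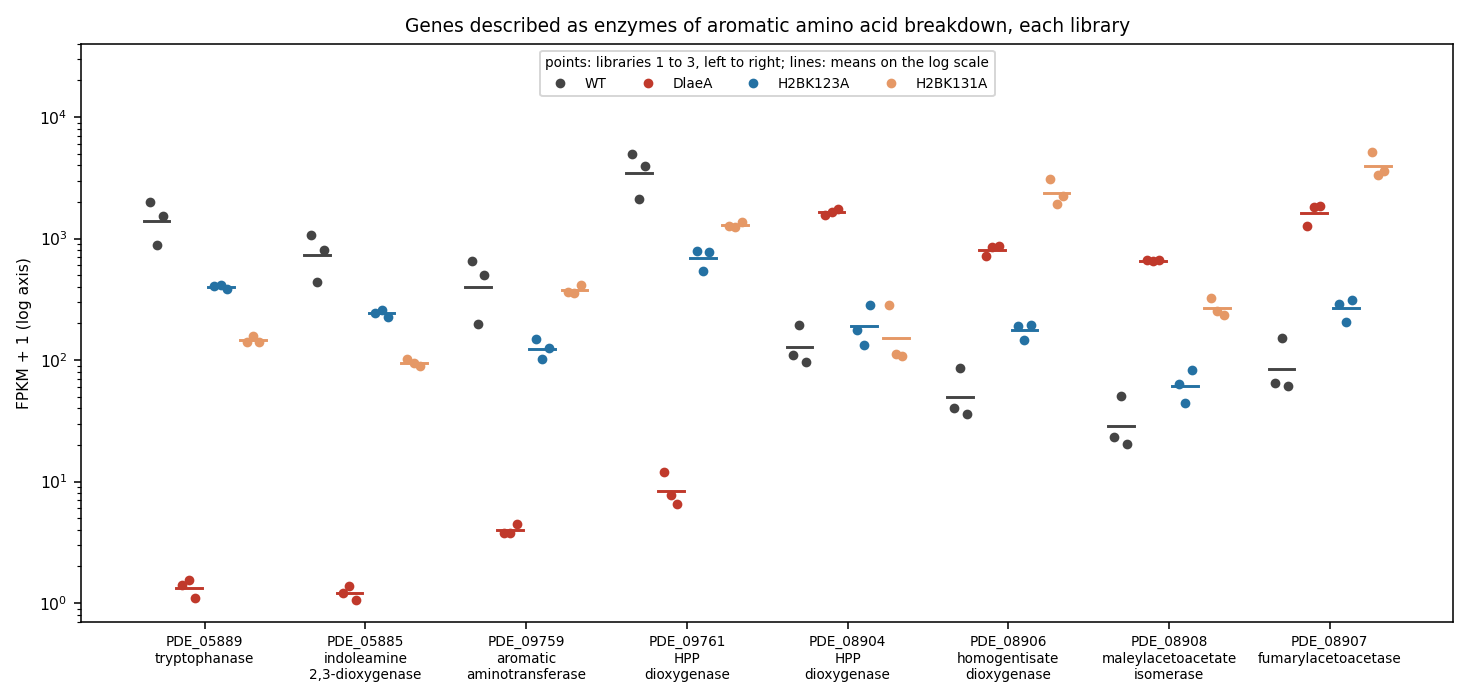
Points are single libraries of the 4 strains for 8 genes described as enzymes of tryptophan and tyrosine breakdown, as FPKM + 1 on a log axis, and lines are means on the log scale. HPP stands for 4-hydroxyphenylpyruvate. DlaeA (red) lies below WT (grey) for the 4 genes on the left and above it for the 4 on the right.

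Of the whole amino acid breakdown list 21 of 36 tested members rose and 9 fell (20 and 11 with median ratio scaling), with a median 0.57 above that of all genes. Of the amino acid and oligopeptide uptake list 10 of 28 rose and 14 fell (7 and 14), with a median 0.64 below that of all genes, and single transporters changed far more than that. PDE_06899, described as an oligopeptide transporter driven by protons, was at 0.82, 0.67 and 1.45 in WT and at 1619, 1007 and 982 in DlaeA (9.23 ± 0.21, limma adjusted p = 1.35e-11). Another so described, PDE_05534, of 3 in all, was at 438, 422 and 408 against 0.91, 1.57 and 0.89 (-7.66 ± 0.17, limma adjusted p = 1.35e-11). The first was high in DlaeA and the second in WT, with no overlap. H2BK123A and H2BK131A averaged 0.843 ± 0.147 and 1.84 ± 0.477 for PDE_06899 and 493 ± 48.4 and 144 ± 37.9 for PDE_05534 (SD, n = 3).

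Amino acid permeases showed the same spread. PDE_00845, described as an amino acid transporter of the yeast family, was at 10.6, 9.95 and 15.1 in WT and at 3080, 2627 and 2667 in DlaeA (7.78 ± 0.18, limma adjusted p = 1.62e-11). PDE_00830, also of that family, was at 150, 64.7 and 154 against 0.67, 0.33 and 0.23 (-6.37 ± 0.33, limma adjusted p = 1.45e-08). Secreted and vacuolar proteases had 8 of 24 higher and 10 lower, beside 46.3% and 23.6% of all genes, with a median 0.46 below that of all genes. The balance of these counts changed sign with array weights. PDE_07344, described as the secreted acid protease aspergillopepsin I, was at 2386, 2294 and 2305 in WT and at 1.27, 2.46 and 0.67 in DlaeA (-9.95 ± 0.22, limma adjusted p = 1.35e-11), and PDE_07936, described as the metalloprotease deuterolysin, was at 59.2, 55.9 and 51.7 against 321, 992 and 967 (3.58 ± 0.33, limma adjusted p = 1.88e-06).

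Ion transport genes with the widest changes were pumps for sodium and calcium that rose and a phosphate carrier that fell. PDE_03497, described as a Na+-exporting ATPase, was at 0.47, 0.64 and 1.75 in WT and at 2049, 1233 and 1300 in DlaeA (9.63 ± 0.23, limma adjusted p = 2e-11). A second such ATPase, PDE_04634 (5.52 ± 0.26), and the Ca2+-transporting ATPase PDE_05150 (6.40 ± 0.10) rose as well. PDE_02513, described as an inorganic phosphate transporter, was at 518, 275 and 494 against 0.42, 0.48 and 0.41 (-8.17 ± 0.19, limma adjusted p = 1.47e-11). Its family of 11 genes had 4 higher and 7 lower, beside 46.3% higher and 23.6% lower of all genes. Among them PDE_05472 (-2.32 ± 0.12) and PDE_05348 (-2.18 ± 0.18) fell and PDE_00011 rose (2.70). The list as a whole had 28 of 60 higher and 19 lower, a balance that turned with median ratio scaling (25 and 29). Of 27 iron genes 11 rose and 6 fell, no more than the 46.3% and 23.6% of all genes, with a median 0.05 below that of all genes. The widest rises among them included the siderophore transporter PDE_04184, at 1, 0.61 and 0.62 in WT and 128, 77.9 and 76.2 in DlaeA (5.73 ± 0.20, limma adjusted p = 5.7e-10), and the ferric-chelate reductase PDE_08755 (3.05 ± 0.19).

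In central carbon metabolism most genes of sugar breakdown and synthesis rose. Of 37 genes of glycolysis, gluconeogenesis and the pentose phosphate pathway 30 rose and 3 fell (24 and 6 with median ratio scaling), with a median 0.65 above that of all genes. PDE_08481, described as fructose-1,6-bisphosphatase, an enzyme used only in the direction of glucose synthesis, was at 29.7, 30.3 and 28 in WT and at 169, 286 and 279 in DlaeA (2.98 ± 0.19, limma adjusted p = 9.62e-08). PDE_08878, described as phosphoenolpyruvate carboxykinase, which starts glucose synthesis from oxaloacetate, was at 185, 289 and 221 against 1255, 1903 and 2027 (2.89 ± 0.43, limma adjusted p = 0.000102). DlaeA 1 was the lowest DlaeA library for both and above every WT library. The hexokinase PDE_03370, which phosphorylates incoming glucose, was among those that fell, at 143, 173 and 179 in WT and 74.5, 81.6 and 83.8 in DlaeA (-1.03 ± 0.11, limma adjusted p = 6.54e-06).

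Enzymes of the glyoxylate shunt, which turns acetyl-CoA into sugar precursors, rose. The isocitrate lyase PDE_03451 was at 48.4, 79.2 and 41.9 in WT and at 198, 266 and 277 in DlaeA (2.15 ± 0.23, limma adjusted p = 7.75e-06). The malate synthase PDE_03483 (2.11 ± 0.25) and the other isocitrate lyase, PDE_08297 (1.89 ± 0.21), rose with it. PDE_08297 was also high in the H2B strains, at 254 ± 57.1 and 210 ± 28.8 (SD, n = 3), and DlaeA was not called different from either (limma adjusted p = 0.459 and 0.784). The TCA and glyoxylate list as a whole had 16 of 35 higher and 9 lower, close to the shares over all genes, and 12 and 13 with median ratio scaling, with the citrate synthase PDE_09135 (-0.86 ± 0.17) and the malate dehydrogenase PDE_02150 (-1.0 ± 0.16) among the falls.

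Of 62 genes of fatty acid oxidation and the peroxisome 45 rose and 2 fell (34 and 4 with median ratio scaling), with a median 0.40 above that of all genes. PDE_07177, described as a peroxisomal enoyl-CoA isomerase, was at 5.25, 6.93 and 3.46 in WT and at 26.5, 40 and 39.7 in DlaeA (2.57 ± 0.22, limma adjusted p = 1.12e-06). The enoyl-CoA hydratase PDE_03907 (2.44 ± 0.19) and the acetyl-CoA C-acetyltransferase PDE_08060 (2.18 ± 0.29) rose too, and the 3-hydroxyacyl-CoA dehydrogenase PDE_06959 was the clearest exception, at 10.1, 10.6 and 8.28 in WT and 0.61, 0.54 and 0.42 in DlaeA (-2.80 ± 0.14, limma adjusted p = 9.09e-09).

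The respiratory chain went the other way. Of 72 tested genes 11 rose and 34 fell (4 and 50 with median ratio scaling), with a median 0.56 below that of all genes, and the changes were small, with 0 genes lower by a log2 difference of 1 or more. PDE_08809, described as a subunit of NADH-ubiquinone oxidoreductase, was at 129, 155 and 137 in WT and at 58, 77.5 and 80.2 in DlaeA (-0.96 ± 0.13, limma adjusted p = 3.41e-05). The alternative oxidase PDE_08849, which passes electrons to oxygen without the cytochrome chain, rose, at 16.2, 4.91 and 38.6 in WT and 74.2, 162 and 157 in DlaeA (2.97 ± 0.56, limma adjusted p = 0.000557). It was high in both H2B strains also, at 89.2 ± 33.1 and 226 ± 53.3 (SD, n = 3), and DlaeA was not called different from them (limma adjusted p = 0.437 and 0.19).

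Of 22 nitrogen genes 10 were higher and 4 lower, near the 46.3% and 23.6% of all genes, so the count shows nothing particular to them. The ammonium transporter PDE_07123, at 8.53, 13.1 and 7.73 in WT and 48.4, 43.9 and 43.4 in DlaeA (2.13 ± 0.18, limma adjusted p = 8.95e-07), the xanthine dehydrogenase PDE_08434 (2.29 ± 0.16) and the glutamate dehydrogenase PDE_06171 (2.05 ± 0.21), which releases ammonium from glutamate, rose. The urease PDE_02913 fell, from 16.9, 21.8 and 18.4 to 1.69, 3.55 and 2.97 (-2.45 ± 0.17, limma adjusted p = 1.52e-07).

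**Figure D4:**
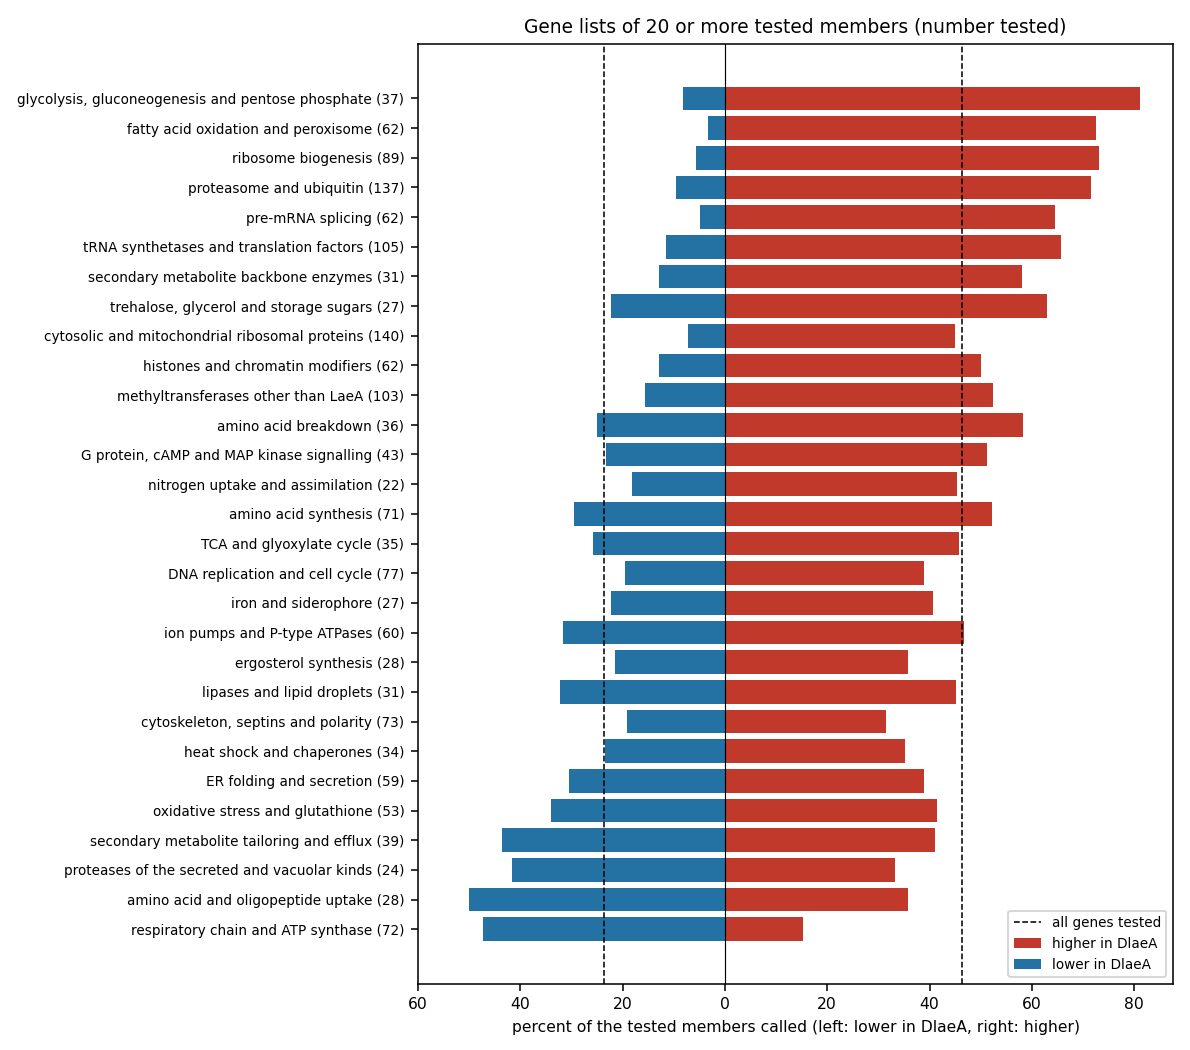
Bars give the percent of tested members called higher (red, right) and lower (blue, left) in DlaeA for the gene lists with 20 or more tested members, whose number is in brackets, and dashed lines mark all genes tested (46.3% and 23.6%). Glycolysis, gluconeogenesis and pentose phosphate genes stand at the top, and the respiratory chain at the bottom.

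Lists of the machinery of gene expression and protein turnover moved up by small amounts. Ribosome biogenesis had 65 of 89 higher and 5 lower, tRNA synthetases and translation factors 69 and 12 of 105, the proteasome and ubiquitin pathway 98 and 13 of 137, and pre-mRNA splicing 40 and 3 of 62. With median ratio scaling these were 37 and 8, 47 and 24, 60 and 22, and 19 and 9, beside 3212 higher and 3154 lower of all 9431 genes. The share of splicing genes called higher was then below that of all genes. Their medians were 0.25, 0.19, 0.19 and 0.13 above that of all genes. PDE_08640, described as the regulatory subunit T1 of the 26S proteasome, was at 18.3, 20.6 and 16.6 in WT and at 81.5, 79.2 and 75.6 in DlaeA (2.04 ± 0.11, limma adjusted p = 2.24e-08). One gene stood far outside its list: PDE_04352, described as the splicing helicase BRR2, was at 3.15, 3.3 and 3.5 against 433, 314 and 320 (6.35 ± 0.15, limma adjusted p = 1.62e-11), and the 2 other genes so described, PDE_06307 (1.71) and PDE_06309 (0.46), rose less.

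Of the remaining lists, ribosomal proteins had 63 of 140 higher and 10 lower (36 and 32 with median ratio scaling), amino acid synthesis 37 and 21 of 71 (24 and 25), ergosterol synthesis 10 and 6 of 28 (7 and 10), and lipases and lipid droplets 14 and 10 of 31 (12 and 15). Cytochrome P450 genes had 5 and 2 of 9, and of 4 velvet, light and sexual development genes 2 rose as deposited and 0 with median ratio scaling. Several others were close to the background or changed with the scaling. Of 62 histone and chromatin genes 31 rose and 8 fell, which became 17 and 20 with median ratio scaling, and the H2B gene PDE_01489 was at 1055, 1194 and 1073 in WT and 691, 793 and 724 in DlaeA (-0.59 ± 0.13, limma adjusted p = 0.0015, but 0.0712 with quantile scaling). Secretory genes of the endoplasmic reticulum (23 and 18 of 59), DNA replication and cell cycle (30 and 15 of 77), cytoskeleton (23 and 14 of 73), heat shock (12 and 8 of 34) and oxidative stress genes (22 and 18 of 53) all turned to more falls than rises with that scaling. The calls over all genes moved the same way, from 4371 higher and 2225 lower to 3212 and 3154. Of 27 genes for trehalose, glycerol and storage sugars 17 rose and 6 fell (14 and 7), with a median 0.29 above that of all genes. The 103 methyltransferases other than LaeA had 54 higher and 16 lower (40 and 27), with a median 0.14 above that of all genes. Both of these lists kept more rises than falls in every setting. Of 43 signalling genes of the G protein, cAMP and MAP kinase pathways 22 rose and 10 fell, which became 16 and 17, with the regulator of cAMP-dependent kinase PDE_04688 at 62.6, 137 and 86.3 in WT and 373, 460 and 485 in DlaeA (2.26 ± 0.22, limma adjusted p = 3.07e-06).

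Some genes were close to off in DlaeA or in WT and on in the other. A gene was counted as near silent where its mean FPKM was under 0.5 in one strain and at least 10 in every library of the other. In DlaeA 43 genes met this (0.456% of those tested) and in WT 22 (0.233%). The 43 include PDE_00584, recalled as the deleted locus itself, though no description names it so. If that recall is right, its loss is the deletion itself, which was not tested. PDE_00584 lies outside the stretches and averaged 34.3 in H2BK123A and 37.4 in H2BK131A, so it is in those counts below too. The genes near silent in DlaeA averaged 14.1 to 1475 in WT, 20 of them lay in stretches, and of the 23 others 12 stood next to another such gene by locus number. Those near silent in WT averaged 11.4 to 188 in DlaeA, and 3 lay in stretches. Of the 43 genes, 38 averaged 10 or more in H2BK123A and 27 in H2BK131A, and of the 22 genes 0 and 1 did. Of the 22, 11 also averaged under 0.5 in H2BK123A and 12 in H2BK131A, and of the 43, 0 and 3 did (PDE_09232, PDE_09233 and PDE_09238). The choice of genes by their level in WT largely fixes such counts in any strain close to WT. The same shares over all genes are not given here.

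Of 17 genes described as choline transport protein 6 were called higher, 8 lower and 3 not called, beside 46.3% higher and 23.6% lower of all genes tested. Near silent in DlaeA were PDE_02398, at 78.2, 40.2 and 45.9 in WT and 0.19, 0.49 and 0.52 in DlaeA, and PDE_00828, at 26.5, 13.1 and 19.9 against 0.26, 0.29 and 0.11. Beside these, PDE_01413, described as choline dehydrogenase, which oxidises choline, was near silent in WT, at 0.1, 0.16 and 0.06 against 75.5, 60.9 and 66.2, and was the 1 gene of the 22 that also reached 10 in H2BK131A, at 105 ± 5.75 (SD, n = 3). PDE_02797, described as acid phosphatase, an enzyme that frees phosphate, was at 21.5, 13.4 and 19.1 against 0.16, 0.24 and 0.31. The runs PDE_05310 to PDE_05312 and PDE_03290 to PDE_03292, too short to count as stretches, hold a gene described as cyanide hydratase (PDE_05310, 85.8, 70.2 and 74.2 against 0.23, 0.23 and 0.14) and one described as a beta-1,3-glucanase (PDE_03291, 57.9, 60.5 and 95.3 against 0.07, 0.17 and 0.1).

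Among genes near silent in WT, 4 had loci between PDE_03477 and PDE_03498, close to the sugar symporter PDE_03475 and the sodium pump PDE_03497. This group was noticed after the values were seen. PDE_03478, without a description, was at 0.07, 0.25 and 0.38 in WT and at 176, 198 and 189 in DlaeA (7.26 ± 0.13, limma adjusted p = 1.26e-12). PDE_03477 is listed at 0 in every WT library and was at 11.5, 21.2 and 14 in DlaeA. Genes between them did not all move: PDE_03480, also described as a choline transport protein, was at 13.4, 14.7 and 15.1 against 19.2, 14.6 and 15.1 (limma adjusted p = 0.569).

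**Figure D5:**
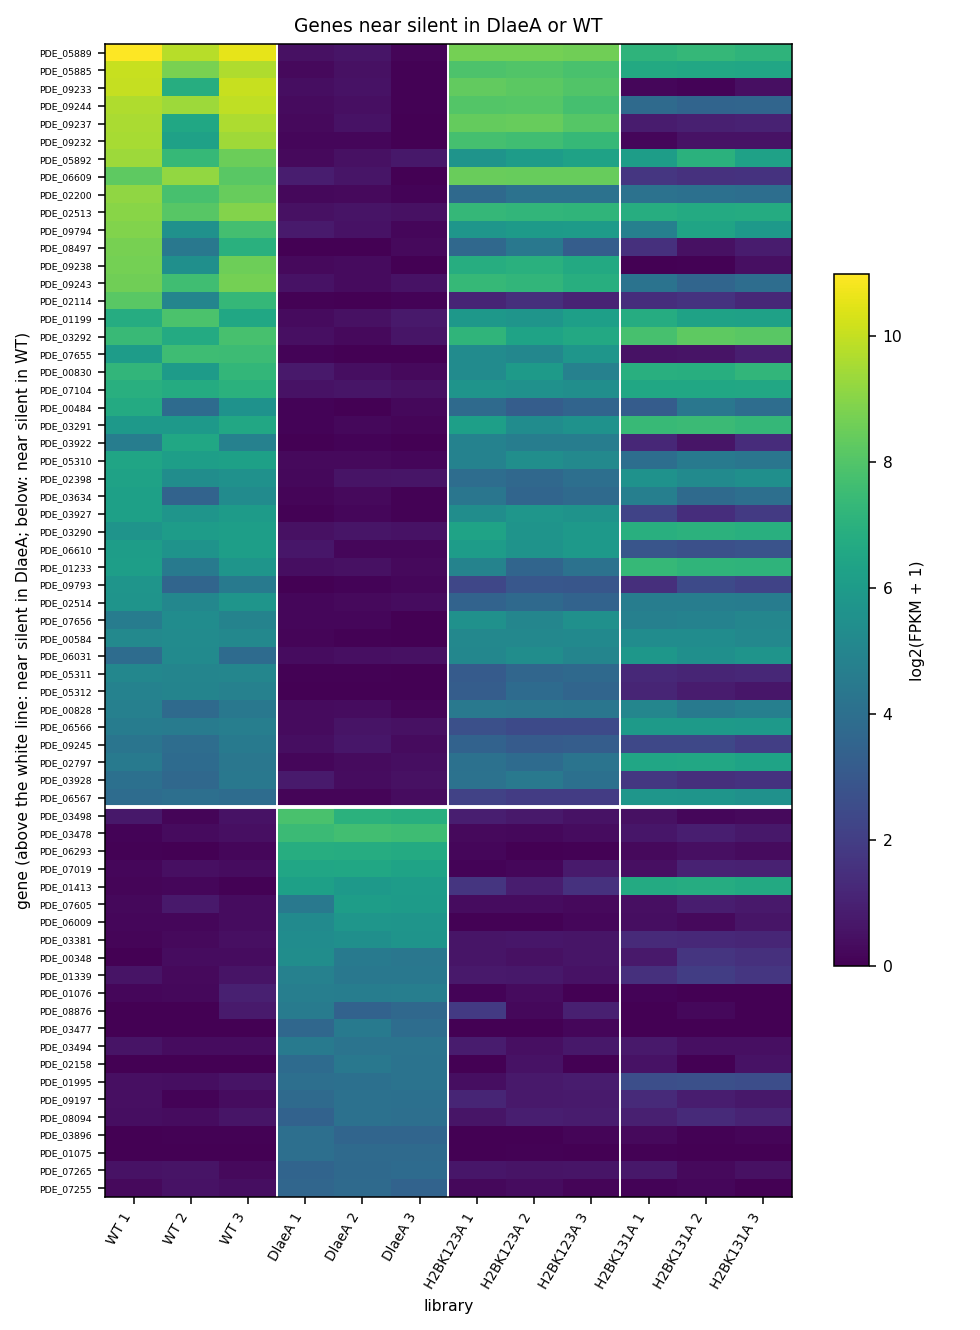
Colour gives log2(FPKM + 1) in each of the 12 libraries for the 43 genes near silent in DlaeA (above the white line) and the 22 near silent in WT (below it), ordered by their highest level in these strains. The 43 include PDE_00584, recalled as the deleted locus. Above the line 38 of the 43 genes average an FPKM of 10 or more in H2BK123A and 27 in H2BK131A, and below it 0 and 1 of the 22 do. The choice of genes by their WT level largely fixes these counts in strains close to WT.

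The widest changes were not confined to described genes. Of 4973 tested genes with a description 49.2% were called higher and 20.5% lower at any size, and of the 4458 without one 43.1% and 27.0%. At a log2 difference of 6 or more these were 0.201% and 0.603% with a description, and 0.314% and 0.808% without one. PDE_06813, without a description, had the deepest fall, from 3717, 2821 and 3983 in WT to 0.66, 2.12 and 0.64 in DlaeA (-10.73 ± 0.26, limma adjusted p = 1.91e-11). H2BK123A had it at 689 ± 63.8, and H2BK131A at 3.8 ± 1.44 (SD, n = 3). The neighbours PDE_00508 and PDE_00509, also without one, fell together (-9.30 ± 0.32 and -9.24 ± 0.28), the second from 3951, 4631 and 4461 to 5.32, 11.4 and 3.75, and stayed high in H2BK131A, at 1157 ± 79.4 and 1188 ± 107. Of those that rose, PDE_02146 went from 7.11, 6.21 and 6.91 to 1222, 1153 and 1282 (7.30 ± 0.09, limma adjusted p = 2.14e-13), with every one of the 9 other libraries below 10.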

How the data were processed

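RNA levels of 9931 genes were read from 1 deposited table of FPKM, 1 column per library, per the file headers. The labels' protocols describe tags cut at NlaIII sites, which a per-kilobase unit does not match, and how the authors made the FPKM, with aligner, build and gene models, is not given in the sources used here. The table holds no counts, so depth is unknown and no interval for counting error is given. FPKM sums per library were 709484 to 764699. Groups and numbers came from the titles.

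Values were analysed as log2 of the deposited FPKM plus 1 with limma 3.58.1 in R 4.3.3 (strain as the only term, 12 libraries, empirical Bayes with trend, 8 residual degrees of freedom, two-sided), with Benjamini-Hochberg adjustment over 9431 genes. The scripts were tested on simulated data. Replicate numbers did not pair the samples. Alternatives were 2 scalings, a pseudocount of 0.1, other filters, a replicate block, array weights, DlaeA 2 and DlaeA 3 averaged, the libraries of DlaeA and WT alone, and each of their libraries left out.

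Names are the deposited database descriptions: 699 usable names from a protein database and 4905 single KEGG names, 5077 genes in all. The reference table holds 0 loci with PDE identifiers and added none. The 32 gene lists were search patterns over these descriptions. The rules, lists and members were chosen with earlier results of these data known, and the patterns were narrowed after the descriptions were read. Named genes were the 12 widest rises and 12 widest falls among called genes whose groups do not overlap, up to 3 called members per list and direction, described members of stretches, PDE_00584, the H2B gene, PDE_00087 and PDE_03008. Genes near silent in 1 strain, genes without a description inside stretches, and further genes sharing a description were chosen after their values were seen.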

Additional observations from a re-analysis of the deposited data

How the results depend on the processing

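Across 15 alternatives 338 of the 344 named genes were called in the same direction wherever they were tested (337 genes under the stricter filter), 6 lost a call in at least 1 and 0 reversed. All 344 were called in the main fit and most were chosen for wide changes there, which largely fixes this count. The share of all called genes that kept their call is not given here. Genes called numbered 6119 to 6926 with 1 library left out, and 5843 with the libraries of DlaeA and WT alone. Stretches numbered 39 to 52 with 1 library left out, with the most when WT 2 was left out, and 59 with a pseudocount of 0.1. Of the 44 stretches, 31 stayed whole with median ratio scaling, 33 with quantile scaling, 25 with the stricter filter, 31 without WT 1 and 38 to 41 without any other single library. The replicate numbers did not pair the samples (same-number correlations 0.124, 0.0277 and 0.0315), and a fit with the replicate block called 6489 genes. Of 32 lists, 17 kept the sign of rises minus falls in every setting, 1 (velvet) reached 0 and 14 reversed in at least 1. With median ratio scaling that balance was -1 for signalling, amino acid synthesis and the TCA cycle, -3 for ergosterol, lipases and histones, -4 for ion pumps, -5 for heat shock and oxidative stress, -12 for cytoskeleton, -14 for the endoplasmic reticulum and -17 for DNA replication. With quantile scaling it was -10 for the endoplasmic reticulum, -5 for cytoskeleton, -4 for DNA replication and -2 for oxidative stress. It was 1 for proteases with array weights, and with 1 library left out it ranged from -1 (without WT 1) to 22 (without WT 2) for cytoskeleton and from -2 to 1 (without WT 3) for tailoring enzymes. Calls over all genes also shifted, from 4371 higher and 2225 lower to 3212 and 3154 with median ratio scaling. The cause was not tested. Depth is unknown, so precision at low FPKM could not be given.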
